A study of Homo sapiens with 4 samples.

Results

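Band 11q25, the last cytogenetic band of the long arm of human chromosome 11, held 439 of the 115384 ELF5 peaks in the deposited list, and 3 of them were strong. The peaks were those with a summit between 130800 and 135007 kb on chromosome 11 of hg19, which spans the 4.21 Mb of the band to the end of the chromosome. A strong peak here is one whose fold enrichment over the local background lies in the highest 10% of the list, at 11.99 or more. The band was chosen by these folds, because so few of its peaks were strong. Its folds, and the p, q, pileups, widths and backgrounds of the same peaks, are therefore given as a description without a test. They are set beside the 478 peaks between 121200 and 128200 kb of the same arm, a stretch of 7 Mb in 11q24.1, 11q24.2 and the start of 11q24.3, called the comparison stretch below.

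The peaks came from chromatin immunoprecipitation with sequencing (ChIP-seq) in T47D, an established human breast cancer line of luminal A type grown in RPMI with serum and insulin and given no treatment. The series held 3 ELF5 immunoprecipitates and 1 input sample of this line. The labels name no transgene. A single peak list was analysed, with the authors' fold, p and q for each peak and nothing that separates the replicates, so the error between replicates is unknown throughout.

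ELF5 belongs to the ETS family, whose members bind DNA through a winged helix domain at sites with a GGAA core. In the mammary gland it is known for driving the secretory alveolar fate of luminal progenitors. ETS sites are found both at promoters, often in CpG islands, and at distal enhancers. In the RefSeq table for GRCh38.p14, 12 protein-coding genes stand in a row from NTM to the end of the long arm. They begin with NTM and OPCML, which encode cell adhesion proteins of the IgLON family, and go on with SPATA19, IGSF9B and JAM3, the last a junctional adhesion molecule. NCAPD3, a condensin subunit, VPS26B, a retromer subunit, THYN1 and ACAD8, a mitochondrial dehydrogenase of valine breakdown, follow, and GLB1L3, GLB1L2 and B3GAT1, a glucuronyltransferase, close the row. These names describe the band, and no peak was assigned to a gene, because the table is of another build than the peaks.

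The 3 strong peaks of 11q25 lay in the distal part of the band, within 569 kb of each other. The strongest covered chromosome 11 from 134367537 to 134368091, a width of 555 bp, with a fold of 30.3 (exact Poisson 95% interval of the pileup, with the background held fixed, 26.3 to 34.8). Its summit had a pileup of 199 fragments over a background of 5.00 fragments, both recovered from the authors' fold and p. The next ran from 133797518 to 133798774 and showed a fold of 20.7 (17.6 to 24.3) at a pileup of 151. The remaining one ran from 133906349 to 133907595 with a fold of 16.6 (13.9 to 19.8) at a pileup of 127. All 3 intervals lay above the threshold. The strongest peak of the comparison stretch, from 124492408 to 124493215, had a fold of 29.5 (26.0 to 33.3), so the single highest folds of both stretches overlapped in their intervals.

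Just under the threshold, 4 peaks of the band had folds from 11.2 to 11.7. The first of these was the widest peak of the band, 2206 bp from 134093499 to 134095704, at 89 fragments and a fold of 11.7 (9.43 to 14.4). It was followed by a peak from 134123134 to 134123832, with a fold of 11.5 (9.27 to 14.1). A narrow peak of 287 bp, from 134412352 to 134412638, had a fold of 11.3 (9.24 to 13.6), its 105 fragments lying over a background of 7.56. The last of the 4, from 132934150 to 132934755, had a fold of 11.2 (8.72 to 14.2) and lay nearest the centromere among them. The intervals of these 4 peaks reached across the threshold, as did those of 3 further peaks below it, so at this depth 7 peaks could not be told from strong ones by counting error alone. Even with those 7 the band would hold 10. In the comparison stretch the folds on either side of the threshold were 12 and 12.1 within it, and 11.4 and 10.5 below it.

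The other 3 of the 10 highest folds in 11q25 were lower. A peak from 133920382 to 133921023 had a fold of 10.3 (8.04 to 13.1). One from 134809805 to 134810117 had a fold of 9.61 (7.79 to 11.7) over a background of 8.00, and one from 134595887 to 134596212 had a fold of 9.56 (7.64 to 11.8) over a background of 7. These last 2 were narrow, 313 and 326 bp wide. The 5 peaks with the smallest p were all among the 10 highest folds.

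**Figure D1:**
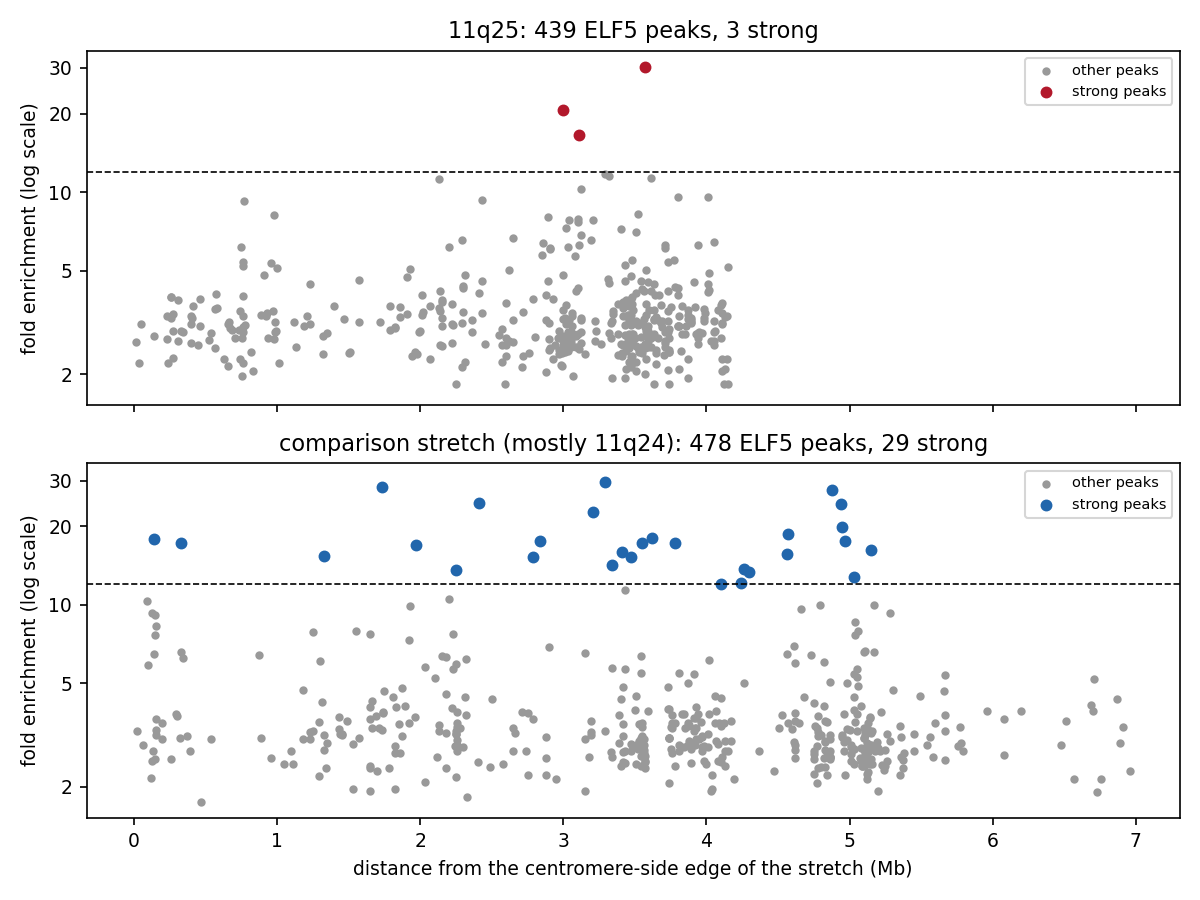
Fold enrichment of each ELF5 peak (log scale) against its distance in Mb from the centromere-side edge, in 11q25 (top) and in the comparison stretch (bottom). Each point is 1 peak, the dashed line is the strong threshold of 11.99, and 3 of 439 points lie above it in 11q25 against 29 of 478 in the comparison stretch.

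Strong peaks made up 0.683% of the peaks in 11q25 (exact binomial 95% interval 0.141% to 1.98%), 6.07% in the comparison stretch (4.10% to 8.60%) and, by the definition, 10.0% of the whole list. The rule rests on this share, so nothing further is read from it, and the intervals cover counting error only and treat neighbouring peaks as independent. Per length, 11q25 held 0.713 strong peaks per Mb and the comparison stretch 4.14. The short stretch between them, from 128200 to 130800 kb, held 9 strong peaks of 263, a share of 3.42%.

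Peaks with a fold under 5 were denser in 11q25, at 92.2 per Mb, than in the comparison stretch, at 55.9 per Mb. The short stretch between them was closer to the band, at 80.8 per Mb. Over all folds that stretch held 101 peaks per Mb, against 104 in 11q25 and 68.3 in the comparison stretch. Peaks with a fold under 3 numbered 47.5 per Mb in 11q25 (exact Poisson 95% interval 41.2 to 54.6) and 27.4 per Mb in the comparison stretch (23.7 to 31.6). Peaks with a fold from 3 to 5 numbered 44.7 per Mb (38.5 to 51.6) and 28.4 (24.6 to 32.7). In the range from 5 to 8 the densities were 8.56 per Mb (5.99 to 11.8) and 6.57 (4.81 to 8.77), and from 8 to the threshold they were 2.85 (1.47 to 4.98), from 12 peaks, and 1.71 (0.886 to 2.99), also from 12 peaks. In both of these middle ranges the intervals overlapped. All density intervals here treat neighbouring peaks as independent and evenly placed. Windows of 500 kb held from 24 to 236 peaks per Mb in 11q25 and from 8 to 174 in the comparison stretch. The intervals therefore understate the spread of the densities, and whether they overlap decides nothing about the stretches. Above the threshold, in the class on which the band was chosen, there were 0.713 per Mb (0.147 to 2.08) in 11q25 and 4.14 (2.77 to 5.95) in the comparison stretch. Peaks with a fold of at least 5 were therefore about as dense in the band, 12.1 per Mb, as in the comparison stretch, 12.4 per Mb. They made up 11.6% of the peaks of 11q25, 18.2% of those of the comparison stretch and 28.4% of the list. For a fold of at least 8 these shares were 3.42%, 8.58% and 16.2%.

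**Figure D2:**
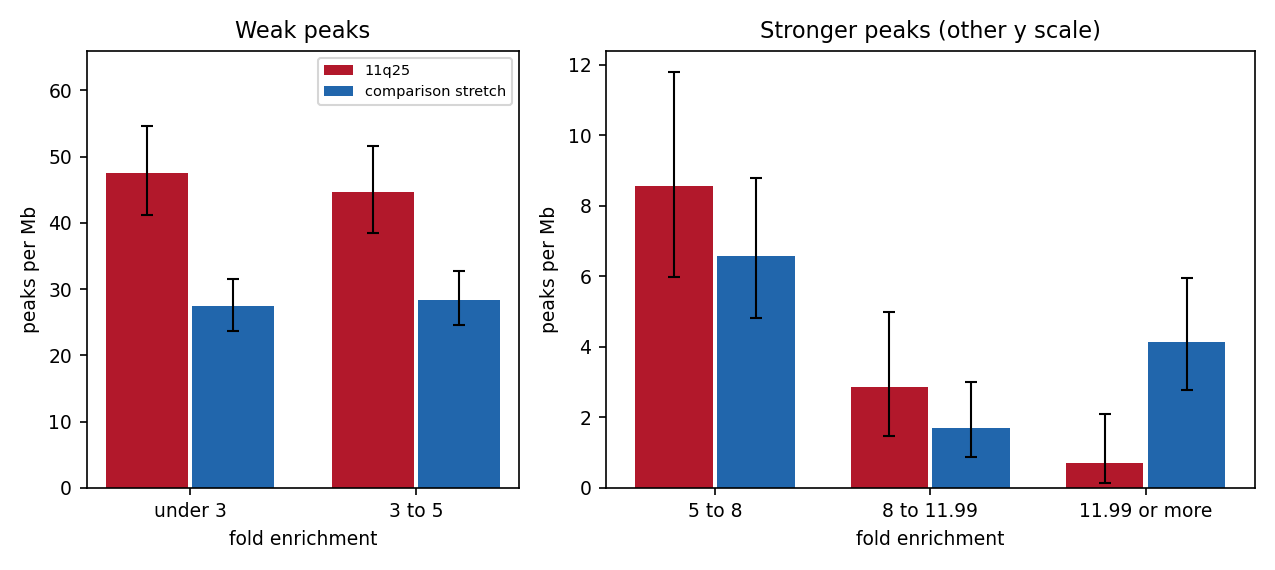
ELF5 peaks per Mb in 11q25 (red) and the comparison stretch (blue) by class of fold enrichment, with exact Poisson 95% intervals as error bars. The intervals cover counting error only and treat neighbouring peaks as independent. The left panel shows folds under 5 and the right panel, on another scale, folds of 5 or more; the red bar is the higher of each pair up to the threshold and the lower above it, at 0.713 against 4.14 per Mb.

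The typical peak differed little between the stretches. The median fold was 3.09 in 11q25 (interquartile range 2.62 to 3.69) and 3.19 in the comparison stretch (2.74 to 3.96), against 3.66 in the list. The upper end separated them: the 90th percentile of the fold was 5.28 in 11q25, 7.44 in the comparison stretch and 12 in the list, and the 95th percentile was 6.85, 13.6 and 18.8. Of the 439 peaks of the band, 74.0% had a fold under the median of the list. At the median pileup and background of the band, 19 and 5.00 fragments, the interval of a fold ran from 1.90 to 4.67, so typical peaks of the band were not resolved from each other.

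The authors' p and q are no separate evidence, because p and the fold rest on the same pileup and background. The authors' q was under 0.05 for 367 peaks of 11q25, or 83.6%, for 88.5% of the comparison stretch and for 87.5% of the list. In the rest of chromosome 11 this share was 85.5%. The highest q among the members was 0.567, so some of the peaks counted here had little support in the list itself. Peaks with a p among the smallest 10.0% of the list numbered 13 in 11q25, or 2.96%, and 39 in the comparison stretch, or 8.16%.

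The local background behind the peaks was nearly as high in both stretches and higher than in most of the list. Its median was 5.00 fragments in 11q25 (interquartile range 4.33 to 6), 5.18 in the comparison stretch (4.77 to 6) and 3.11 in the list. A higher background asks for a higher pileup to reach the same fold: a fold at the threshold needed a pileup of 79 at the median background of the band, and of 54 at that of the list. In 11q25, 12 of the 439 peaks had a pileup of at least 79. That cut comes from the band itself and was not counted in the comparison stretch or the list, so shares at another cut follow. The pileups themselves were also lower at the top. The 90th percentile of the pileup was 36.2 fragments in 11q25, 56.3 in the comparison stretch and 59 in the list, and 4.78% of the peaks of the band had a pileup of 59 or more, in the highest 10% of the list with ties, against 9.41% in the comparison stretch and 10.2% of the list.

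Grouped by background, the strong share on which the band was chosen is given as a description only, with at most 2 strong members in any group. Over a background of 5 to 6 fragments, 2 of 104 peaks of 11q25 were strong, 1.92% (0.234% to 6.77%), beside 8 of 153 in the comparison stretch, 5.23% (2.28% to 10.0%), and 12.4% in the list. Over 6 fragments or more, 1 of 142 was strong in 11q25, 0.704% (0.0178% to 3.86%), against 20 of 170 in the comparison stretch, 11.8% (7.34% to 17.6%), and 10.6% in the list. Over 4 to 5 fragments none of 135 was strong in 11q25, which at 3 counts allows up to 2.22% (exact upper limit 2.7%). In the comparison stretch 1 of 126 was strong, 0.794%, while the list had 10.2%. Under 4 fragments there were 0 of 58 in 11q25, which at 3 counts allows up to 5.17% (exact upper limit 6.16%). The comparison stretch had 0 of 29, which allows up to 10.3% (exact upper limit 11.9%). Of the strong peaks of the comparison stretch, 20 of 29 lay over a background of 6 fragments or more, and of those of the band 1 of 3 did. The part of the background in the folds was not tested.

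**Figure D3:**
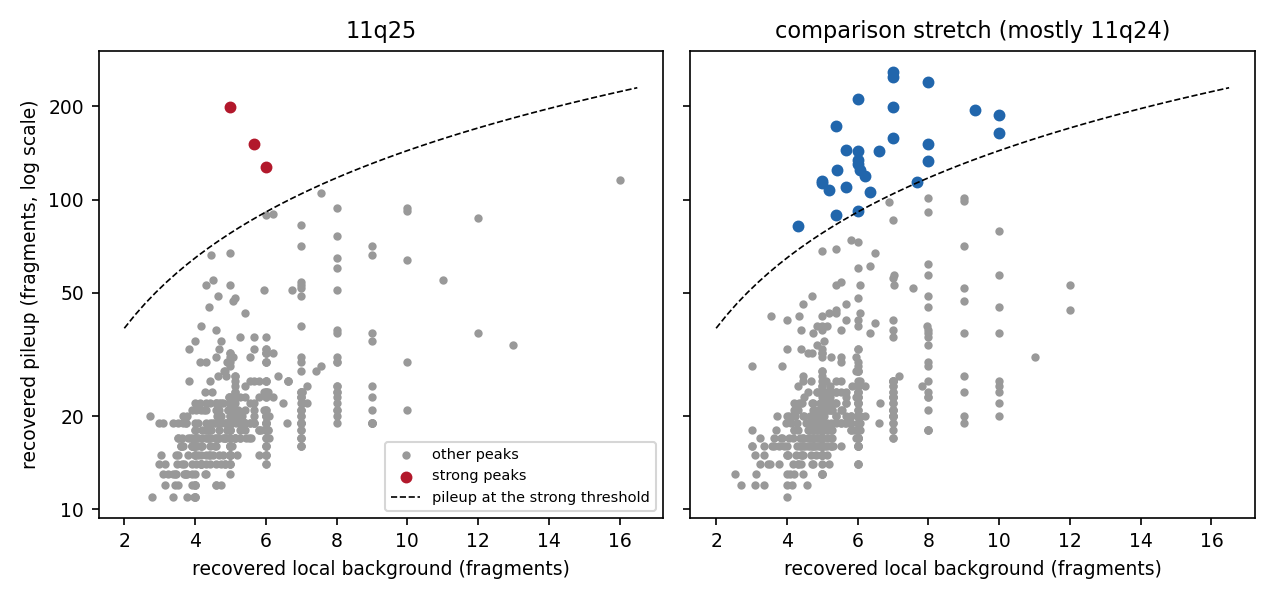
Recovered pileup at the summit (fragments, log scale) against recovered local background (fragments) for each peak of 11q25 (left) and of the comparison stretch (right). The dashed curve is the pileup that gives a fold of 11.99 at each background; 3 peaks lie above it on the left and 29 on the right, 20 of these over a background of 6 fragments or more.

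Peaks in 11q25 were about as narrow as elsewhere, with fewer wide ones. The median width was 198 bp in 11q25 (interquartile range 159 to 282), 209 bp in the comparison stretch (159 to 312) and 215 bp in the list. The 95th percentile of the width was 553 bp in 11q25, 856 bp in the comparison stretch and 1004 bp in the list. Peaks of at least 1000 bp numbered 7 in 11q25, or 1.59%, and 18 in the comparison stretch, or 3.77%, against 5.05% of the list. The smallest width in the list, 135 bp, was that of 30 peaks of the band, or 6.83%, of 7.32% in the comparison stretch and of 9.27% in the list. Width went with fold inside the band: the median width was 184 bp for folds under 3, 191 bp from 3 to 5, 380 bp from 5 to 8 and 606 bp for the 15 peaks with a fold of 8 or more. In the comparison stretch these medians were 174, 209, 338 and 808 bp. The stretches differed most in the class of highest folds, which held 15 peaks in the band and 41 in the comparison stretch. This class mixed folds unlike in the 2 stretches, since 3 of the 15 and 29 of the 41 were strong. Among strong peaks alone the order was the other way, with median widths of 1247 bp in 11q25 and 851 bp in the comparison stretch.

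Wide peaks of the band were not all strong. Of its 5 widest peaks 3 were among its 10 highest folds. The second widest, 1532 bp from 133826084 to 133827615, had a fold of only 6.17 (4.95 to 7.59), at 87 fragments over a background of 12. Another of 1228 bp, from 133230788 to 133232015, had a fold of 4.54 (3.03 to 6.57) at a pileup of 26. Of the strong peaks, those of folds 20.7 and 16.6 were 1257 and 1247 bp wide, and the one of fold 30.3 was 555 bp wide.

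ELF5 peaks were denser in the distal part of the band, though not most at its very end. Beyond the midpoint of the band lay 335 peaks, or 159 per Mb, and before it 104, or 49.4 per Mb. The median fold was 3.09 beyond the midpoint and 3.10 before it, while the median background was 5.35 (interquartile range 4.79 to 6.55) and 4 (3.68 to 4.59). All 3 strong peaks and 13 of the 15 peaks with a fold of at least 8 lay beyond the midpoint, where 335 of the 439 peaks of any fold lay. In windows of 500 kb from the centromere side, density ran from 24 peaks per Mb in the third window to 236 in the eighth. It did not rise steadily, with 86 in the second window and 136 in the shorter last one. The median fold of the windows stayed between 2.74 and 3.47. The seventh and the eighth windows held 110 and 118 peaks, with 1 strong peak each. The densest windows of the comparison stretch held 174 and 164 peaks per Mb, with 2 and 3 strong peaks. Without the last 1 Mb of the chromosome, 11q25 held 70.8 peaks per Mb, close to the 68.3 of the comparison stretch.

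**Figure D4:**
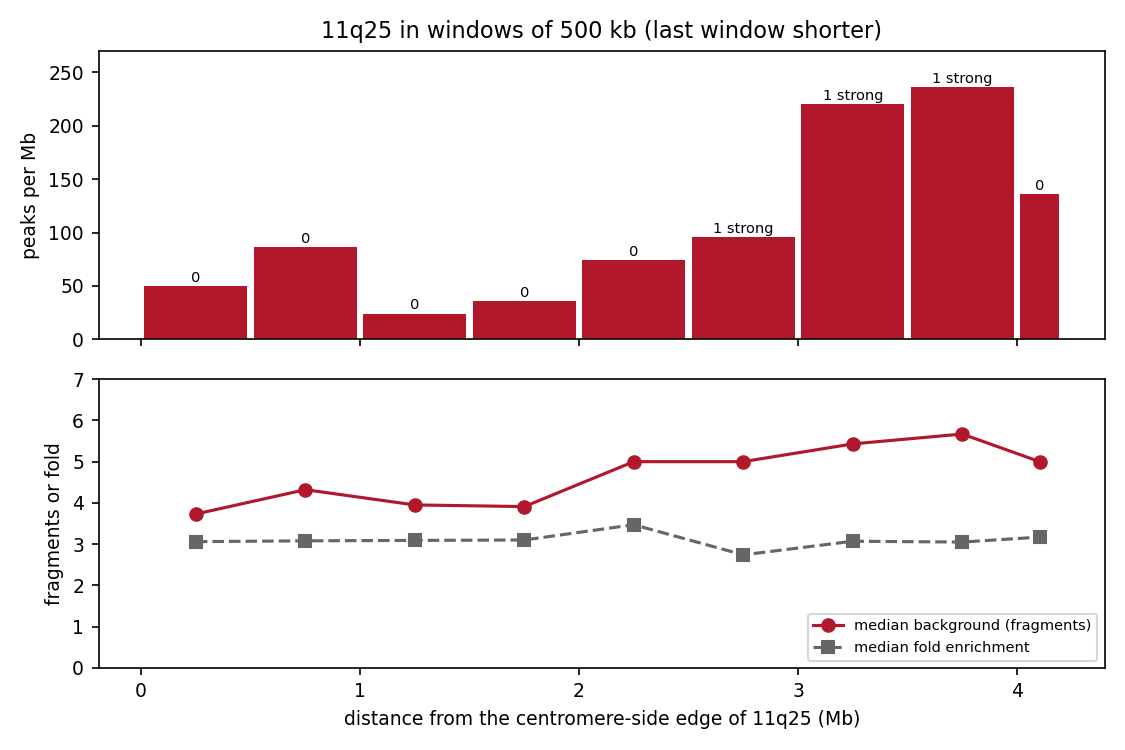
Peaks per Mb (top, with the number of strong peaks over each bar) and median recovered background and median fold enrichment (bottom) in windows of 500 kb across 11q25, against distance in Mb from its centromere-side edge. Density is highest in the eighth window, at 236 peaks per Mb, and 136 in the last. The median background is 3.73 fragments in the first window, 5.67 in the eighth and 5 in the last. The median fold stays between 2.74 and 3.47.

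Over the band as a whole, the summits lay closer together than in the comparison stretch. From 1 summit to the next, the median distance in 11q25 was 3120 bp (interquartile range 971 to 9988), against 4127 bp in the comparison stretch (1288 to 14428) and 4186 bp in the list. In the stretch between 11q25 and the comparison stretch it was 3368 bp, near that of the band. Within the band the median distance was 10046 bp before the midpoint and 2335 bp beyond it. The closer spacing was thus that of the distal part only. The order-statistic 95% intervals of the first 2 medians, 2532 to 3672 and 3049 to 5298 bp, overlapped. Distances of at most 1 kb made up 25.8% in 11q25, 20.1% in the comparison stretch and 22.8% in the list. The closest summits, 177 bp apart, belonged to weak neighbours at 134632574 to 134632743 and 134632822 to 134632957, with folds of 3.66 and 2.85. The longest distance, 150271 bp, lay between peaks at 132374383 to 132374669 and 132524711 to 132524850, against 333379 bp in the comparison stretch. Distances over 50 kb took up 31.3% of the band and 49.2% of the comparison stretch.

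Joining peaks at the default stitching distance of ROSE, a tool for calling super-enhancers, gave 88 regions in 11q25, or 20.9 per Mb, and 132 in the comparison stretch, or 18.9 per Mb. Regions of 10 or more peaks held 56.5% of the peaks of the band and 46.0% of those of the comparison stretch. The largest region of the band, from 134197638 to 134412988, held 90 peaks over 215 kb, of which 1 was strong, the peak of fold 30.3, and its median fold was 2.93. The next, from 133762915 to 133923826, held 54 peaks and the other 2 strong ones, with a median fold of 2.90. The largest region of the comparison stretch held 42 peaks. The 8 other regions of 10 or more peaks in the band held 10 to 19 peaks each and no strong one, with highest folds from 3.76 to 11.5. The 32 peaks of the band that stood alone had a median fold of 2.85 and included the widest peak, of fold 11.7.

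At the edges of the band the peaks were weak, apart from 1 just outside it. The first peak inside, from 130815950 to 130816087, had a fold of 2.65 (1.54 to 4.31), and its summit lay 16048 bp from the edge. The last, from 134946242 to 134946409, had a fold of 1.83 (1.17 to 2.75), the lowest in the band, over a background of 10.0 fragments, with its summit 60144 bp from the end of the chromosome. Outside, 13638 bp before the band, the peak from 130785546 to 130786639 had a fold of 25.1 (21.9 to 28.7) at a pileup of 220. The 2 peaks between it and the band had folds of 3.66 and 2.75. A border drawn slightly nearer the centromere would therefore have given the band 4 strong peaks.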

How the data were processed

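ELF5 ChIP-seq was done in T47D cells in 3 replicates with 1 input sample, per the labels, which do not say whether replicates were separate cultures. The protocol text of the labels names antibodies against other factors, while the sample labels give 1 catalogue antibody for all ELF5 samples. The authors deposited 1 peak list on hg19, per the file headers, whose track name mentions IDR and 1-3. Not given in the sources used here are any pooling of replicates, the aligner, and the peak caller with its threshold. Each deposited score is 10 times −log10 p, cut to a whole number. The authors' −log10 p and −log10 q entered without change. The authors' signal value was read as a fold, the ratio of ChIP to local background. Total reads per sample are unknown here.

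Pileup and background were recovered from fold and p. The fold was taken as pileup times 0.910 plus a pseudocount of 1, over background plus the same pseudocount, and p as the upper tail of a Poisson law. With whole pileups, every one of the 115384 deposited −log10 p values was met to 0.001, and no peak of 11q25 had another pileup within that tolerance. The recovery was tested on 1926 simulated peaks, of which 100% were recovered. They were simulated from the same formula, and their factor was given to the fit. That check therefore tests neither the formula nor the search for the factor of 0.910. The recovered pileups and backgrounds are inferred. Positions are counted from 1. Summits were assigned by start plus offset, and peaks were joined by the gap between edges. Bands came from circlize 0.4.16 in R 4.3.3. Shares carry exact Clopper-Pearson 95% intervals, pileups and densities exact Poisson 95% intervals, and the limit that a count of 0 allows is 3 counts. All of them cover counting error only, and those of shares and densities treat neighbouring peaks as independent. Computation used pandas 2.3.3, scipy 1.17.1 and numpy 2.4.6 under Python 3.11.15, and figures matplotlib 3.10.9.

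Named peaks were the strong peaks, the 10 highest folds, the 5 widest, the 5 smallest p, the first and the last peak, the closest summits and the longest distance. The band, its comparison stretch and these rules were chosen with earlier results of these data known. No test was run, since the band was chosen on its folds and the list has no samples. Alternatives are in the closing section. Sequences and genes under the peaks were not analysed here, and no hg19 reference was used.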

Additional observations from a re-analysis of the deposited data

How the results depend on the processing

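Of 25 alternative values for 11q25, 14 did not move, 10 moved and 1 turned its order with the comparison stretch. A share or a median counted as moved when it left the 95% interval of the main value, and a density or a count of regions when it changed by over 1.5 times. Density without the last 1 Mb, 70.8 per Mb against 104, is therefore not among those that moved. The share of strong peaks, 0.683%, was 5.47% for the highest 20% of folds, 2.96% for the highest 10% by p and 4.78% for the highest 10% by pileup, each below the comparison stretch (10.7%, 8.16% and 9.41%). It ran from 0.456% to 1.82% over its other alternatives, of which the distal part beyond the midpoint and a threshold set on chromosome 11 were chosen after seeing the data. With a background within 1 fragment of the median of the band, it was 1.06% against 4.15%. The band was chosen for its low strong share, and p and pileup come from the same peaks. The place of these shares below the comparison stretch is therefore a description and no separate support. Among peaks with q under 0.05 the median fold was 3.24 against 3.34. Among peaks at or above the median fold of the list, fewer by construction, density was 27.1 per Mb against 22.3, the median fold 4.68 against 5.45 and the median width 311 bp against 350 bp. At like background the widths were level, at 200 bp in both, and the order turned below the rounding. The median spacing was 7107 bp against 8080 bp with peaks within 1 kb joined, and there were 171 regions when joined within 5 kb and 43 within 25 kb, by construction. No paired analysis was possible because replicates are not separated in the deposited peaks, and for the same reason no replicate could be left out. Counting error at these pileups limits what can be ranked near the threshold.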

Other observations

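Among 303 bands of at least 2 Mb with at least 100 peaks, the median share of strong peaks was 9.71%, and 11q25 had the lowest, at 0.683%. It was picked for this, and its place is a description. The next lowest were 8q11.1 with 0.794% (1 strong peak of 126), 15q13.1 with 0.826% (1 of 121) and 12p11.1 with 1.72% (2 of 116), and their exact binomial 95% intervals, up to 4.34%, 4.52% and 6.09%, overlapped that of 11q25 (0.141% to 1.98%). Band 5p15.33, like 11q25 at a chromosome end, held 20 strong peaks of 981, 2.04% (1.25% to 3.13%), at 218 peaks per Mb and a median background of 3.92. By median background 11q25 ranked 7 from the highest of the 303. It was 1 of 8 bands with at least that background, and the others had shares of strong peaks from 3.31% to 12%. On the same arm these were 11q24.3 with 3.31%, 11q24.1 with 5.15% and 11q24.2 with 6.61%. The part of the background in these shares was not tested.

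The distance from the strong peak just before 11q25 to the first strong peak within it covered 3012237 bp and held 183 consecutive peaks without a strong one. Of 11519 such intervals between neighbouring strong peaks on chromosomes 1 to 22 and X, which held a median of 4 peaks, it ranked 6 by the number of peaks. The 5 above it, in 20q13.33, 8q24.3 (2 intervals), 4p16 and 5p15.33, held 185 to 284 peaks over distances from 404361 to 2124984 bp. The band was chosen by the same strong calls, so the length and rank of its interval are a description only. Within 11q25 a further 94 peaks separated the strong peaks of folds 16.6 and 30.3, and 127 peaks followed the last strong one, with folds up to 11.3.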
